A study of Mus musculus with 4 samples.

Results

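Of the 145453 distal regions of 1000 bases that the series lists, 1938 (1.33%) were open in basal nuclei of both the fetal and the adult mammary gland and less open in the luminal nuclei of either stage. Reads of the listed nuclei were summed over the deposited classes 1 and 8 (adult basal), 4 and 12 (fetal basal), 3 and 7, 2 and 11, and 5 and 9. A level is given as CPM, the reads that overlap a region scaled to 1000000 distal reads of its group. A region was kept where the smaller of the adult and fetal basal levels was at least 10 CPM and, with 0.5 CPM added for ratios, at least 2 times each of the other 3 groups. These levels therefore chose the regions, and the gap between basal and luminal groups is given below as a description, with no test.

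Chromatin accessibility was measured in single nuclei by transposase insertion (snATAC-seq) in 4 libraries from wild-type CD1 mice. The nuclei came from mammary epithelial cells sorted as positive for EpCAM and negative for the lineage markers. The libraries were 2 biological replicates from embryonic day 18 (E18) and 2 from adults aged 8 weeks, with no genetic change or treatment in either group. The labels do not say how many animals a library holds or how replicates relate across stages.

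Basal cells form the outer layer of the mammary duct, where they rest on the basement membrane. They carry keratins 5 and 14 and the transcription factor p63, and in the adult they contract to expel milk. Accessible regions away from promoters often act as enhancers, and the set that is open differs between cell types.

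The libraries held 882 and 1695 fetal nuclei and 2465 and 2804 adult nuclei, with a median of 4420 to 7488 reads per nucleus, and no barcode was shared between libraries. The adult basal group had 1060 nuclei, of which 10 came from fetal libraries. The fetal basal group had 815 nuclei, of which 6 came from adult libraries. The basal label held against reads over gene bodies. Of 12 basal marker genes, 11 were highest in the adult basal group among the adult groups (32.3% of all genes), Itgb4 being the exception, and 12 of 12 were higher in the fetal basal group than in fetal classes 5 and 9 (38.3% of all genes). Summed over 10 luminal progenitor markers, classes 3 and 7 stood at 584 CPM against 148 in the adult basal group, so they are called progenitor-like. Summed over 10 mature luminal markers, classes 2 and 11 stood at 1155 CPM against 422, and they are called mature-luminal-like. Fetal classes 5 and 9 exceeded the fetal basal group in 10 of 10 progenitor markers and are called fetal progenitor-like. Stromal markers also moved with the basal groups: their sum was 247 CPM in the adult basal group, 136 in the progenitor-like group and 209 in the mature-luminal-like group, against 901 in class 6. In the fetus it was 211 in the basal and 181 in the progenitor-like group, and 5 of 8 stromal markers were highest in the adult basal group and 7 of 8 higher in the fetal basal group. The sum of 6 endothelial markers was 212 CPM in the adult basal group, against 157 and 129 in the adult luminal groups, and 193 against 170 in the fetus. The sum of 7 skin epidermis markers was 77.3 CPM in the fetal basal against 60.8 CPM in the fetal progenitor-like group, with 6 of 7 higher, and 59.1 CPM in the adult basal group. The part of these markers in the results was not tested.

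Sequence was at hand only where a kept region reached over the 250 bases before a RefSeq transcription start (build GRCm38.p6, the same assembly as mm10), which was so for 32 regions with 38 windows. Motifs for factor families known from epithelial cells were searched on both strands. TGANTCA, the AP-1 site bound by Fos and Jun proteins, was in 18.4% of the 38 windows, in 11.5% of the 2867 such windows in any distal region and in 6.75% of all 32814 windows. CATG repeated after a gap of 6 bases, the paired site read by the p53 family to which p63 belongs, was in 2 of the 38 windows, or 5.26%, against 0.419% and 0.488%. GGAATG (TEAD) was in 7.89%, 15.6% and 12.6% in the same order, ACAANGG (SOX) in 7.89%, 13.4% and 11.6%, and TGTGGT (RUNX) in 15.8%, 16.5% and 14.04%. A match is a description of letters and not a bound site. CAGCTG, an E-box, was in 23.7%, 16.1% and 13.007%, and the CArG box of contractile genes in 5.26%, 1.64% and 1.47%. The E-box CACGTG was in 5.26% of the 38 windows and 6.02% of all windows. CACCTG, read by ZEB and SNAI repressors, was in 15.8% and 17.2%. AGGAAGT, the ETS motif, was in 7.89% and 7.69%. AGATAA, the GATA motif, was in 5.26% and 9.99%. TGTTTAC, read by forkhead factors, was in 5.26% and 3.16%, and the STAT motif in 7.89% and 7.02%. The full p53-family, NF1, GRHL and steroid receptor motifs were in 0 of the 38. Windows can overlap: 2 of the 7 windows with an AP-1 match, those of Gm52321 and Gm36201, share 1 site, and both windows with a CArG box belong to Gm39572 and overlap. The windows of the 3 protein-coding genes with an AP-1 match and both windows with the p53-family pair are shown as examples for these 2 families. AP-1 is not particular to basal cells: the Fos motif score, given below, was highest in the mature-luminal-like group. Each window is written in the direction of its gene. Other matches, such as those of STAT in Ugt1a6a, ETS in Rgs12 and GATA in Shroom4, are left in lower case, and capitals mark TGANTCA in the first 3, with GGAATG on the other strand in Shroom4, and the CATG pair with its gap in the last 2, with ACAANGG after it in Filip1.

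Ugt1a6a: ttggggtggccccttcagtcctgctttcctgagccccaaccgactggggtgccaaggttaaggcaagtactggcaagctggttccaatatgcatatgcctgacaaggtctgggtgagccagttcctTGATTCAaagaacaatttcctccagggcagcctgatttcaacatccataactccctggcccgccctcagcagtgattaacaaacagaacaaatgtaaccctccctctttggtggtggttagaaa
Rgs12: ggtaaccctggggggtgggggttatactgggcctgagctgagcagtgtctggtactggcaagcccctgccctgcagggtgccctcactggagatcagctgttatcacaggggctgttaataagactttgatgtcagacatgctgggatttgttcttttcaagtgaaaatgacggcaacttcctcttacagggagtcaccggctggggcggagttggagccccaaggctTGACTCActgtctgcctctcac
Shroom4: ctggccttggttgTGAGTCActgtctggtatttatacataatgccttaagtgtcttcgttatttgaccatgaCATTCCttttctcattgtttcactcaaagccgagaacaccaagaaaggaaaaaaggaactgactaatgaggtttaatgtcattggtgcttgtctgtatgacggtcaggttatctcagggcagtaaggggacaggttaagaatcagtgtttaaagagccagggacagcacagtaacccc
Filip1: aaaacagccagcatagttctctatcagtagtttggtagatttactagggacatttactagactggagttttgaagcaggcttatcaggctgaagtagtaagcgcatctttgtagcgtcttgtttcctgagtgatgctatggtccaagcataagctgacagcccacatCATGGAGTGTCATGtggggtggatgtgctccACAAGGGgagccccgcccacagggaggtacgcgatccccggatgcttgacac
Gm51434: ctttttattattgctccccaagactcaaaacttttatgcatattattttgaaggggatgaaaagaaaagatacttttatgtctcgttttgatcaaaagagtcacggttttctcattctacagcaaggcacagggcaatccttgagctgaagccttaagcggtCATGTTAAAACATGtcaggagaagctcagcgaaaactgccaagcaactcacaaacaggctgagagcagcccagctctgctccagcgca

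The Ugt1a6a window lies at chr1:88134559-88134808 on the plus strand, and its region stood at 37.5 CPM in adult and 33.1 CPM in fetal basal nuclei, against 10.9 CPM in the fetal progenitor-like group and 3.94 CPM or less in the adult luminal groups. The gene encodes an enzyme that attaches glucuronic acid to small molecules. The Rgs12 window is at chr5:34998828-34999077, plus strand, in a region with 27.2 and 24.2 CPM in adult and fetal basal nuclei. Rgs12 dampens signalling through G proteins. The Shroom4 window is at chrX:6415492-6415741, plus strand, in a region with 16.0 and 15.3 CPM, and Shroom4 shapes the actin cytoskeleton. The Filip1 window is at chr9:79962082-79962331, minus strand, in a region with 25.5 and 10.7 CPM, and Filip1 binds filamin A. Gm51434 is a long noncoding RNA gene, with its window at chr3:59194284-59194533 on the minus strand, in a region with 29.3 and 28.1 CPM. The deposited list places all 5 regions among the distal ones although they reach a RefSeq start.

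Kept regions had a median of 23.7 CPM in adult basal nuclei and 18.2 CPM in fetal basal nuclei. The median was 4.73 CPM in the fetal progenitor-like group, 2.22 CPM in the adult progenitor-like group and 1.02 CPM in the mature-luminal-like group, while the medians of all distal regions lay between 2.59 and 3.56 CPM in the 5 groups. By library, the median was 24.4 and 23.5 CPM in the adult basal nuclei and 18.05 and 18.26 CPM in the fetal basal nuclei. The fetal progenitor-like libraries had medians of 3.75 and 4.93 CPM. In 1515 regions (78.2%) this fetal group was the highest of the 3 others. It also had the highest median of the 3 over all distal regions, 3.46 CPM against 2.71 and 3.07 CPM. In 1800 regions (92.9%) every basal library stood above every library of the other 3 groups, which was so for 4.50% of all distal regions. The rule used this contrast, and nothing is read from that count.

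Most kept regions were modest in level. The median of the smaller basal level was 16.7 CPM, 1237 regions (63.8%) were under 20 CPM and 54 reached 50 CPM. The median ratio to the highest other group was 3.04, and the largest was 28.6. Near the limit of 10 CPM, a region inside Dnm3 was kept with a smaller level of 10.3 CPM, and one inside Plcl1 was not, with 9.97 CPM. Near the limit on the ratio, a region by Itga6 was kept at 2.0011 and one inside Nfatc2 was left out at 1.99841. Across the choice, 274 regions had a ratio under 2.2, and 351 further regions at 10 CPM or more had a ratio of 1.8 to 2.

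The highest kept region lay inside Dzip1l (chr9:99631869-99632868), a gene of ciliary transport, with 124 and 98.4 CPM in the adult basal libraries and 138 and 85.7 CPM in the fetal basal libraries. It was not silent elsewhere: its mature-luminal-like libraries had 30.8 and 48.2 CPM and its fetal progenitor-like libraries 35.6 and 39.2 CPM. A region inside Nrg1 (chr8:32218549-32219548), which encodes the neuregulin ligand of the ErbB receptors, separated the groups further. Its basal libraries had 119 and 99.6 CPM in the adult and 76.7 and 91.7 CPM in the fetus, its fetal progenitor-like libraries 11.9 and 21.5 CPM, and no adult luminal library exceeded 4.39 CPM. A region inside Mybl2 (chr2:163074866-163075865), a gene of the cell cycle, had 122 and 123 CPM in the adult and 123 and 81.9 CPM in the fetal basal libraries. The other 7 of the 10 highest lay inside Hmgcll1, Ttc23, Ptprf and Amotl1 or near Ppp2r1b, Lep and Eea1, with smaller levels of 69.8 to 94.7 CPM. All 10 had adjusted p-values of 0.339 or more between the stages by edgeR's quasi-likelihood test. They were ranked by the smaller basal level, which favours regions alike in both stages, so nothing is read from these p-values.

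The rule was also applied to 1 replicate of each stage and the regions read in the other. The deposited classes cover the nuclei of all 4 libraries, so these counts are a description and not independent of the classes. Regions chosen on replicates 1 alone numbered 2466, and in replicates 2 both basal groups stood above the other 3 groups in 2044 of them (82.9%), against 12.6% of all distal regions. Regions chosen on replicates 2 alone numbered 1805, and in replicates 1 this held for 1573 (87.1%), against 12.03%. In the replicates left aside, the median levels were 19.7 CPM in adult and 14.9 CPM in fetal basal nuclei for the first choice. They were 22.9 and 16.5 CPM for the second. Both choices together shared 924 regions.

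The rule joins limits within each stage with limits across stages. Of 10398 regions that met the limits within the adult groups, 18.6% were kept, and of 5330 that met them within the fetal groups, 36.4% were kept. Kept regions held 5.54% of the distal reads of adult basal nuclei and 4.23% of those of fetal basal nuclei. An equal spread over regions would give 1.33%.

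Deposited classes 6, 10, 13 and 14 played no part in the choice. Class 14, a class of 85 nuclei, had 2.51% and 2.49% of its distal reads in kept regions in the adult replicates. That lay between the basal classes, with 3.97% to 5.77% in each library, and the luminal classes, with 0.338% to 1.27%. Class 14 had a summed basal marker level of 591 CPM and a summed mature luminal marker level of 841 CPM. Marker levels of single nuclei were not computed for class 14. Its nuclei had a median of 3297 and 3105 distal reads in the adult replicates, against 1621 to 1867 in classes 1 and 8, and no doublet call was made here. Class 6, with the stromal markers, had 1.33% of its distal reads in kept regions, equal to the even share, and 117 kept regions (6.04%) were higher there than in both basal groups. Class 10 had 0.464% and class 13 had 0.794%.

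**Figure D1:**
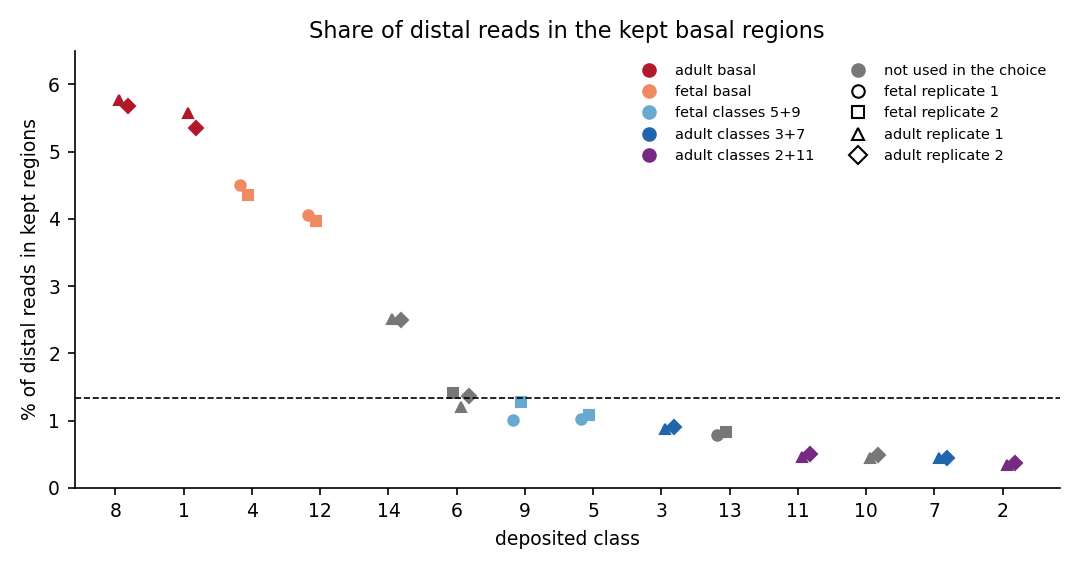
Percent of distal reads that fell in the kept basal regions (vertical axis) in each deposited class (horizontal axis), with 1 point for each library with at least 50000 distal reads in the class. The dashed line is the even share of 1.33%. The 8 points of classes 8, 1, 4 and 12 lie at 3.97% or above, and class 14 lies between them and the rest.

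The same reads were also taken per nucleus. They chose the regions, so these shares show the spread within a class and add no separate support. In class 1 the median nucleus had 5.39% and 5.36% of its distal reads in kept regions in the adult replicates, and in class 8 it had 5.67% and 5.53%. In the fetal replicates the medians were 4.40% and 4.36% in class 4 and 4.19% and 3.99% in class 12. The middle 80% of class 12 nuclei ran from 2.78% to 5.57% in fetal replicate 1, and that of class 9, fetal progenitor-like, from 0.450% to 1.62%. The median nucleus of class 2, mature-luminal-like, had 0.316% and 0.344%.

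Reads of basal nuclei rose toward the centres of the kept regions. Reads of adult basal nuclei were 14.7 times as dense within 100 bases of the centre as from 1500 to 2000 bases away, and those of fetal basal nuclei 14.5 times. The ratio was 9.53 in class 14, 4.92 in the fetal progenitor-like group, 4.80 in class 6, 3.09 in the adult progenitor-like group and 2.23 in the mature-luminal-like group. The luminal groups thus kept a small central rise over their own flanks. Within the regions, the central 400 bases held 59.25% of the reads of adult basal nuclei, 60.7% in the fetal basal group and 57.2% in the mature-luminal-like group, where an even spread would give 40%. In every group the rise was highest in the 200 bases on the higher-coordinate side of the centre.

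**Figure D2:**
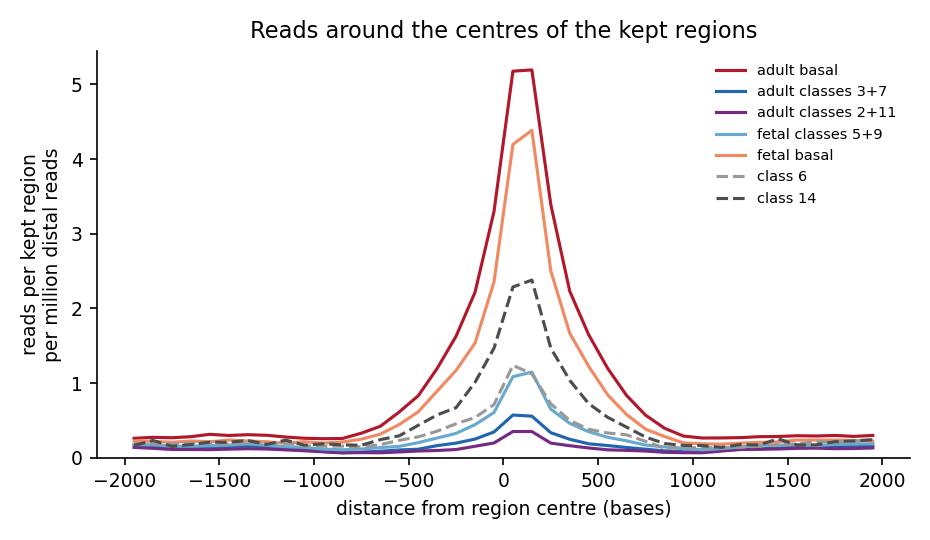
Read midpoints per kept region (vertical axis, as CPM of the group's distal reads) in bins of 100 bases against distance from the region's centre (horizontal axis), for the 5 groups and for classes 6 and 14. Adult and fetal basal nuclei share a sharp central rise that is lower in class 14 and lowest in the mature-luminal-like group.

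Kept regions were spread over 20 chromosomes and 54.4% lay inside the span of a protein-coding gene, against 53.3% of all distal regions. Their median distance to a listed promoter region was 53144 bases, against 42166 for all. The X chromosome had the lowest share, 0.561% of its distal regions, and chromosome 15 the highest, 1.74%. Of the kept regions, 191 (9.86%) lay within 10000 bases of another, a share for which no background was computed. Assigned to the gene whose span held them or lay nearest, they fell to 1482 genes, of which 1173 had 1 region. Spred2, a brake on Ras signalling, had 8 of its 60 distal regions kept. Camk1g, Col4a2, Nrg1, Ptprm, Sema5a and Sema6d had 6 each, from 59, 33, 101, 49, 42 and 51 distal regions.

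Genes known for basal identity were then taken by role. Of 16 transcription factors of basal cells, 7 had a kept region: Trp63, Id4, Tbx3, Tead1, Runx1, Hmga2 and Tcf4. Tbx3 was also among the mature luminal markers used above. Over its gene body it had 160 CPM in the mature-luminal-like and 96.8 CPM in the adult basal group. Of all protein-coding genes, 6.77% had one. Trp63 encodes p63, and its region (chr16:25834931-25835930), inside the gene, had 38.8 and 29.1 CPM in the adult and 40.6 and 22.9 CPM in the fetal basal libraries. No library of the 3 luminal groups exceeded 8.31 CPM, so the groups did not overlap. Tead1, a partner of the coactivator YAP, had a region inside the gene (chr7:112713217-112714216) with 61.8 and 37.1 CPM in the adult and 52.6 and 53.8 CPM in the fetal basal libraries. Runx1, a factor of many epithelia, stood near the limit on the ratio: its region (chr16:92684345-92685344) had 25.4 to 45.1 CPM in basal libraries and 10.2 to 13.7 CPM in the luminal libraries. The region nearest to Id4, 483274 bases from the gene's span, was higher in class 6, at 74.4 CPM, than in adult or fetal basal nuclei, at 22.9 and 23.1 CPM.

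Of 7 keratins of basal cells, only Krt5, the type II keratin that pairs with keratin 14, had a kept region. It lay 4429 bases from the gene (chr15:101716835-101717834), with 21.6 and 33.4 CPM in the adult and 27.1 and 31.8 CPM in the fetal basal libraries. The fetal progenitor-like libraries had 1.25 and 3.38 CPM there and no adult luminal library exceeded 1.62 CPM, a ratio of 9.37 to the highest other group. Krt6b and Krt16 had no assigned distal region that could be kept, Krt15 had 1 and Krt17 had 2.

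Of 16 contractile genes, 6 had a kept region: Acta2, Mylk, Tpm1, Lmod1, Smtn and Cald1. Lmod1, which nucleates actin filaments in smooth muscle, had 48.9 and 57.6 CPM in the adult and 42.1 and 56.6 CPM in the fetal basal libraries (chr1:135358281-135359280), while its fetal progenitor-like libraries reached 24.4 and 24.7 CPM. Mylk, the kinase of the myosin light chain, had 33.1 and 40.2 CPM in the adult and 43.6 and 23.9 CPM in the fetal basal libraries (chr16:34920634-34921633). Acta2, smooth muscle actin, had 23.0 and 24.1 CPM in the adult and 16.5 and 15.9 CPM in the fetal basal libraries (chr19:34243634-34244633), where fetal progenitor-like replicate 1 had 13.7 CPM. The other 10 contractile genes, among them the smooth muscle myosin Myh11 and the oxytocin receptor Oxtr, had none.

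Of 17 genes of the basement membrane and the hemidesmosome, the junction that anchors basal cells to it, 9 had a kept region. Dst, a linker of keratin to the hemidesmosome, had 60.4 and 47.7 CPM in the adult and 37.6 and 33.2 CPM in the fetal basal libraries (chr1:34142720-34143719), with at most 7.53 CPM in any luminal library. The region nearest to Itga6, a laminin receptor, lay 96468 bases from the gene's span (chr2:71689919-71690918). It had 50.3 and 37.1 CPM in the adult and 46.6 and 38.9 CPM in the fetal basal libraries. The adult progenitor-like libraries had 21.5 and 12.7 CPM there. Of the others described here, Itga3 and Itgb1 are integrin subunits, Lama3 and Lama5 are laminin chains, and Col17a1 and Col4a1 are collagens. Their highest regions had smaller basal levels of 10.3 to 24.6 CPM.

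Of 25 basal signalling genes, 11 had a kept region. Among ligands and their inhibitors, these were Nrg1, Dll1 and Jag1 of the ErbB and Notch pathways, Bmp7, and the Wnt pathway protein Dkk3. Receptors and surface proteins were Egfr, Fgfr2, Cdh3 and Mme, and Igfbp2 and Igfbp3 bind insulin-like growth factors. Some of the highest regions lay far from the gene's span: 565194 bases for Igfbp3, 293198 for Jag1, 150134 for Mme and 87080 for Dll1. The region nearest to Jag1, a Notch ligand, had 23.0 and 34.0 CPM in the adult and 42.1 and 26.2 CPM in the fetal basal libraries (chr2:137409219-137410218), and at most 9.61 CPM in any library of the 3 luminal groups. The region inside Egfr, the receptor of epidermal growth factor, had 28.8 and 14.2 CPM in the adult and 18.05 and 9.36 CPM in the fetal basal libraries (chr11:16856833-16857832). No luminal library exceeded 1.04 CPM there.

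Of 22 luminal genes, Esr1 and Gata3 had 1 kept region each, the latter 634201 bases from the gene's span. That is 9.09% of the genes, against 6.77% of all protein-coding genes and 9.13% of those with an assigned distal region. Of the distal regions assigned to luminal genes, 0.506% were kept, against 1.33% of all. The share was 2.02% of 595 for basal transcription factors and 4.39% of 228 for contractile genes. It was 4.22% of 379 for basement membrane and hemidesmosome genes and 3.30% of 667 for basal signalling genes. The 4.76% for the keratins was 1 region of 21. The lists were chosen with results of these data known, so the shares are descriptions.

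**Figure D3:**
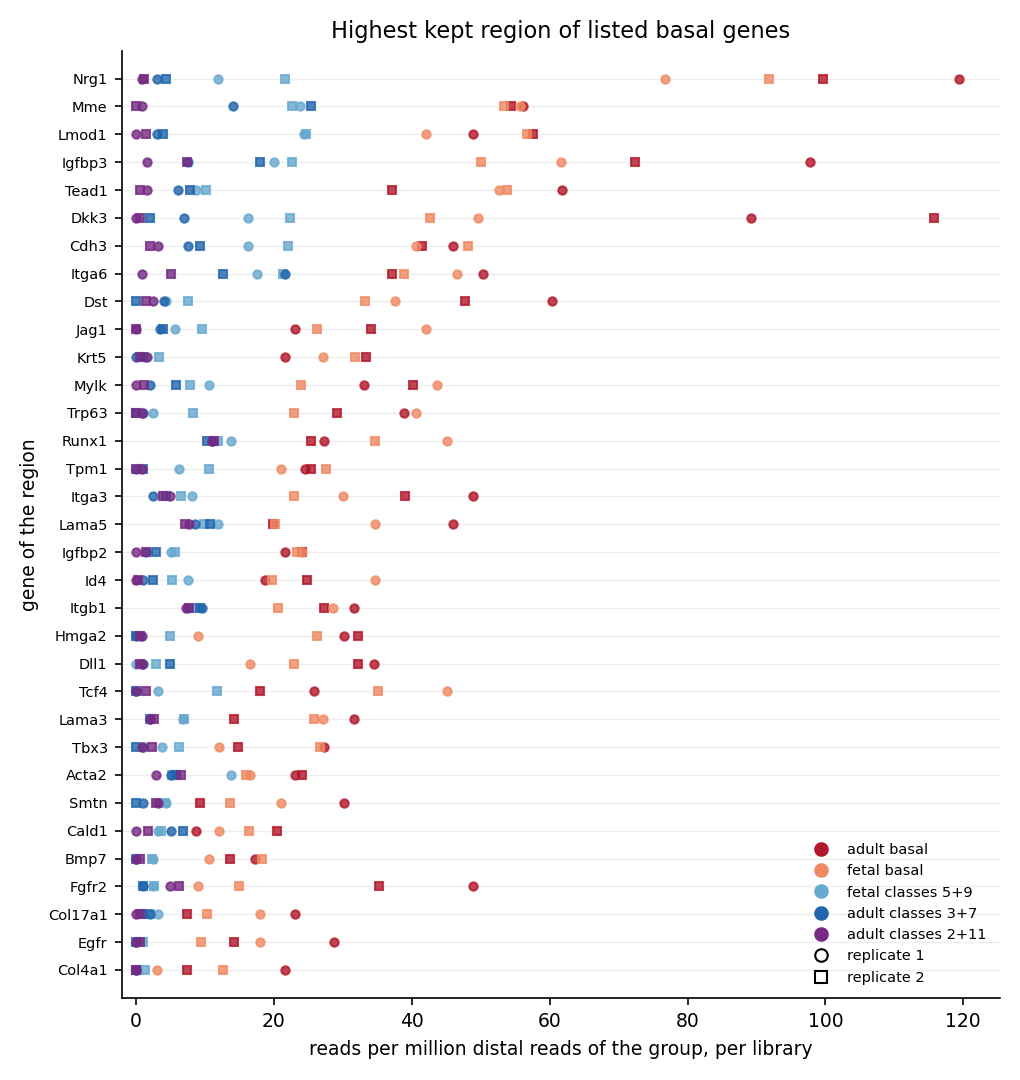
Level in each library (horizontal axis, CPM of the group's distal reads) of the highest kept region of 33 of the 34 listed basal genes with a kept region (vertical axis). Circles are replicate 1 and squares replicate 2. Basal points lie to the right of luminal points for most genes, and the widest gap between the stages in CPM is that of Dkk3.

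The stage comparison asked where the kept regions still differed between fetal and adult basal nuclei. All 1938 had the mean of 10 reads per library needed for the test. The floor of 10 CPM in both stages limits how far a kept region can move. A rise in the fetus is held further by the limit on the ratio, since the adult basal level must stay at least 2 times the fetal progenitor-like level, the highest of the 3 others in most kept regions. So nothing is read from the share of calls against that of all regions, from the balance of higher and lower calls, or from the sizes of rises against falls. By edgeR's quasi-likelihood test, with p-values adjusted over 35692 distal regions, 187 kept regions differed (9.65%, against 19.8% of all tested). Of these, 177 (9.13%) were higher in the adult, where 10.7% of all tested were. A further 10 (0.516%) were higher in the fetus, against 9.04% of all tested. The median log2 fold change, fetal over adult, was -0.19 for kept regions, with quartiles of -0.63 and 0.15, and 0.01 for all regions tested. Without fetal replicate 2, the more deeply sequenced fetal library, 38 kept regions were higher in the adult and 8 in the fetus. The count higher in the fetus was 5 without fetal replicate 1, 2 without adult replicate 1 and 6 without adult replicate 2. DESeq2 called 82 higher in the adult and 3 in the fetus, and with class 4 alone as the fetal group 58 were higher in the adult.

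The largest fall toward the fetus was inside Matn2, a matrix protein gene (chr15:34408987-34409986). Its adult basal libraries had 73.3 and 89.7 CPM and its fetal basal libraries 9.02 and 13.1 CPM, or -2.70 ± 0.37 on the log2 scale, fetal over adult (SE; adjusted p = 5.2e-07 by edgeR). The fetal progenitor-like libraries had 5.00 and 3.12 CPM there, below both fetal basal libraries. A region 8809 bases from Poc1a, a centriole gene (chr9:106358832-106359831), had 93.4 and 79.2 CPM in the adult and 6.02 and 15.9 CPM in the fetus, or -2.64 ± 0.37 (adjusted p = 7.4e-07), which became -3.53 without fetal replicate 2. The region nearest to Klf13, a zinc finger factor (chr7:63856323-63857322), had 111 and 86.0 CPM in the adult and 19.6 and 20.6 CPM in the fetus (-2.17 ± 0.32, adjusted p = 1.9e-06). The regions nearest to Gm6569 and Tcim, with changes of -2.30 and -2.28, complete the 5 largest falls, and both missed the threshold without fetal replicate 2 (-1.43 and -1.42, adjusted p = 0.053 and 0.096). With class 4 alone as the fetal group, the changes of the Gm6569, Tcim and Klf13 regions were -1.58, -1.54 and -1.53, and all 3 calls held.

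The 5 largest rises began with a region near Atp6v1c1, a proton pump subunit (chr15:38721196-38722195). Its fetal basal libraries had 49.6 and 39.8 CPM and the adult ones 14.4 and 14.9 CPM, or 1.66 ± 0.43 on the log2 scale (SE; adjusted p = 0.0038 by edgeR). Inside Sema6d, an axon guidance gene (chr2:124329119-124330118), fetal basal libraries had 46.6 and 27.6 CPM against 10.1 and 12.9955 CPM (1.65 ± 0.48, adjusted p = 0.010). Near Zfp365 (chr10:67798667-67799666) they had 64.7 and 73.0 CPM against 30.2 and 29.7 CPM (1.30 ± 0.32, adjusted p = 0.0024). The regions nearest to Cblb and Unc5d rose by 1.27 and 1.23, and neither passed by DESeq2 (adjusted p = 0.127 and 0.0828). The Unc5d region had 7.06 CPM in adult class 1 and 39.3 CPM in adult class 8. Fetal classes 4 and 12 had 34.3 and 49.3 CPM there, so class 8 lay between them. Class 8 also exceeded class 1 in the Zfp365 region (41.2 and 20.4 CPM) and the Cblb region (24.9 and 9.41 CPM). In the Atp6v1c1 and Sema6d regions class 1 was the higher. With class 4 alone as the fetal group, the Zfp365, Sema6d and Unc5d calls were lost (adjusted p = 0.0558, 0.0529 and 0.158). The Sema6d and Unc5d regions lost their calls without fetal replicate 1 or without either adult replicate, with adjusted p up to 0.126 and 0.249. Without fetal replicate 2 their changes were 2.24 and 1.82. The Cblb region was lost without fetal replicate 2 or either adult replicate, with adjusted p up to 0.211.

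Of the 61 kept regions of the 5 basal gene lists, 4 were higher in the adult (6.56%), with 10.7% of all tested regions as background, and 0 in the fetus. They belong to Dkk3, Fgfr2, Acta2 and Hmga2. The Dkk3 region (chr7:112143804-112144803) had 89.1 and 116 CPM in the adult and 49.6 and 42.6 CPM in the fetal basal libraries, or -1.11 ± 0.27 on the log2 scale (SE; adjusted p = 0.0023 by edgeR). The call was lost without fetal replicate 2 (adjusted p = 0.152) and without adult replicate 2 (0.0508). The Fgfr2 region (chr7:130212801-130213800), in a receptor of fibroblast growth factors, had 48.9 and 35.3 CPM against 9.02 and 15.0 CPM (-1.57 ± 0.45, adjusted p = 0.0092), and its call was lost without fetal replicate 1, fetal replicate 2 or adult replicate 1 (0.0575, 0.0707 and 0.0533) and with class 4 alone (0.0609). Another Acta2 region (chr19:34246144-34247143) had 38.4 CPM in the adult and 11.0 CPM in the fetal group (-1.93, adjusted p = 0.0047), and its call was lost without fetal replicate 1 (-1.41, adjusted p = 0.0553). Without fetal replicate 2 its change was -4.29. Another Hmga2 region (chr10:120338778-120339777) had 44.9 and 13.5 CPM (-1.44, adjusted p = 0.020). That call was lost by DESeq2 (adjusted p = 0.145), with class 4 alone (0.222), without fetal replicate 2 (-0.60, adjusted p = 0.536) and without adult replicate 2 (-0.83, adjusted p = 0.427). The Trp63, Krt5 and Tead1 regions described above had log2 fold changes of -0.07 ± 0.40, 0.16 ± 0.41 and 0.26 ± 0.32 (SE), and changes within these errors were not detectable at this depth. Leaving out 1 library turned each sign: the Trp63 value was 0.57 without fetal replicate 2, Krt5 was -0.16 without adult replicate 1 and Tead1 was -0.22 without adult replicate 2.

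**Figure D4:**
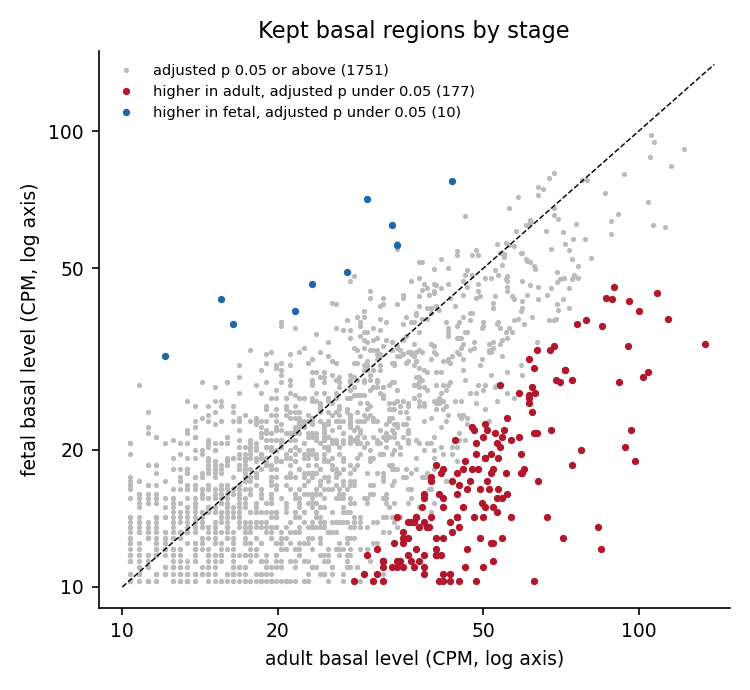
Fetal basal level against adult basal level of the 1938 kept regions, both in CPM on log axes, with the dashed line marking equal levels. The 177 regions with an adjusted p under 0.05 and a higher adult level lie below the line, and the 10 with a higher fetal level lie above it.

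Within each stage, few distal regions were called between the 2 basal classes. The median kept region had 4 to 24 reads in the sum of a class in a library. At that depth, few calls do not show that the classes are alike. Between fetal classes 12 and 4, with the library as a block, edgeR called 6 of 17681 regions tested (0.0339%) and 0 of the 1372 kept regions tested. At an unadjusted p under 0.05 there were 126 kept regions (9.18%, against 7.87% of all tested), and DESeq2 called 0. The median log2 fold change of kept regions, class 12 over class 4, was -0.23, against -0.03 for all tested. Between adult classes 1 and 8, edgeR called 1 of 15752 regions (0.00635%) and 0 of the 1398 kept regions tested, with 151 at an unadjusted p under 0.05 (10.8%, against 8.52%) and 0 by DESeq2. Without TMM scaling 6 of the 15752 regions were called, 1 of them kept. At a mean of 50 reads 11 of only 313 regions tested were called, a larger share, with 2 of them kept and higher in class 8. The median, class 1 over class 8, was -0.22, against 0.02 for all tested. Both medians had the direction of the shares of distal reads in kept regions. These shares were higher in class 4 (4.38%) than class 12 (3.99%) and in class 8 (5.68%) than class 1 (5.42%). The cause was not tested.

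The deposited co-accessibility scores, which are given per pair of regions, tied kept regions to each other and to promoters. At a score of at least 0.25, 220 kept regions (11.4%) had a promoter partner, against 2.21% of all distal regions. Partners of any kind were also more frequent, in 61.3% of kept regions against 14.6% of all. Of the 3689 links from a kept region to a distal partner, 1134 (30.7%) led to another kept region. A pair of kept regions was counted from both ends. In all, 701 kept regions (36.2%) had such a partner. Kept regions are 1.33% of all distal regions, which is a share of regions and not of links. The 186 promoter regions so tied had medians of 76.8 CPM in the adult basal and 56.1 CPM in the fetal basal group, as CPM of the group's promoter reads. The fetal progenitor-like, adult progenitor-like and mature-luminal-like medians were 30.8, 16.5 and 11.3 CPM. Both basal groups exceeded the other 3 in 152 of the 186 (81.7%), against 13.5% of all promoter regions. The nearest promoter regions of kept regions did so in 359 of 1508 cases (23.8%). The nuclei behind the scores are not given in the sources used here, and the basal and luminal contrast is that of the choice, so no test is given.

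Among these pairs, a kept region nearest to Krtap17-1 scored 0.460 with the promoter of Krt14, the keratin of basal cells, at 218055 bases. A region inside Col4a2 scored 0.455 with the shared promoter of Col4a1 and Col4a2, the collagen chains of the basement membrane. The promoter of Nipal4, a membrane protein of the epidermis, was tied to kept regions at scores of 0.638, 0.610 and 0.599. Vgll3, a partner of TEAD factors, had a score of 0.603 between a kept region assigned to it and its promoter, at 53684 bases. The promoter of Gja1, a gap junction protein, scored 0.436 with a kept region assigned to that gene, at 234706 bases.

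**Figure D5:**
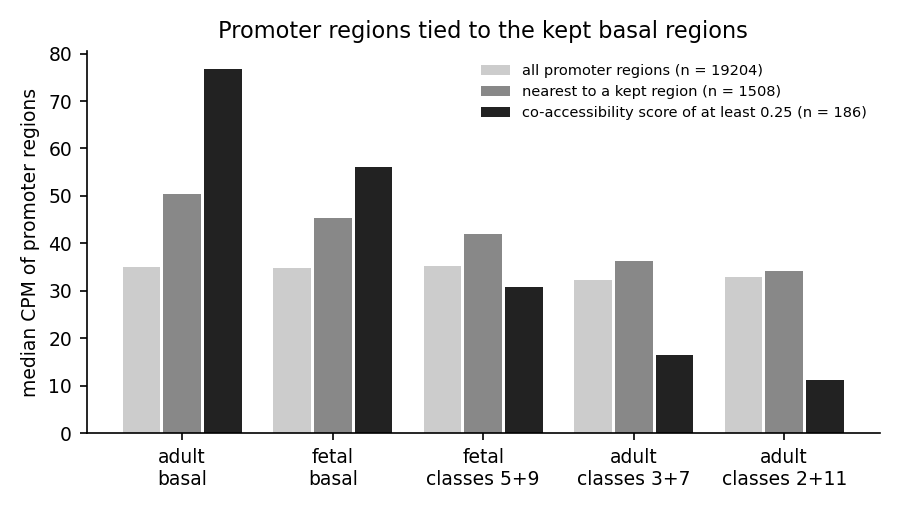
Median level of promoter regions in the 5 groups (bars, CPM of the promoter reads), for all 19204 promoter regions, the 1508 nearest to a kept region and the 186 with a co-accessibility score of at least 0.25 to one. The last set stands highest in adult basal nuclei, at 76.8 CPM, and lowest in the mature-luminal-like group, at 11.3 CPM.

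Promoter regions were also compared by stage in basal nuclei. Of 13140 tested, edgeR called 219 higher in the adult (1.67%) and 175 in the fetus (1.33%). Of the 183 tested promoter regions tied to a kept region by score, 33 (18.03%) were higher in the adult and 1 in the fetus. They were picked through kept regions and can carry the limits of the rule, so nothing is read from that balance. Of the 1168 tested promoter regions nearest to a kept region, 41 (3.51%) were higher in the adult and 15 (1.28%) in the fetus. The count of 33 fell to 20 without fetal replicate 1, and DESeq2 called 12. Of the 34 listed basal genes with a kept region, 23 had a listed promoter region over one end of their span, and 1 changed: the promoter of Mme, a surface peptidase, was lower in the fetus. It had 181 and 164 CPM in the adult and 98.5 and 79.1 CPM in the fetal basal libraries, or -0.99 ± 0.27 on the log2 scale (SE; adjusted p = 0.029 by edgeR). That call was lost by DESeq2 (adjusted p = 0.151), without fetal replicate 2 (0.307) and without adult replicate 1 or 2 (0.0761 and 0.0560). In 7 of the 23 promoter regions both basal groups exceeded the 3 luminal groups, against 13.5% of all promoter regions, and in the others they did not. The Tead1 promoter, for one, had 65.8 CPM in the adult basal and 112 CPM in the adult progenitor-like group, and the Mylk promoter 40.6 and 52.9 CPM. The Col17a1 promoter, that of a hemidesmosome collagen, had 66.6 and 34.1 CPM in the adult and fetal basal groups and at most 5.34 CPM in the 3 luminal groups (-1.23 ± 0.44, adjusted p = 0.12). The Acta2 promoter had 126 and 93.3 CPM against at most 24.2 CPM (-0.46 ± 0.29, adjusted p = 0.45).

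The deposited motif scores give, per nucleus, how far regions holding a factor's motif depart from the average. Among 427 motif columns, those of Trp73 and Trp63, both of the p53 family, stood farthest above the luminal groups in both basal groups. The Trp53 column of that family did not: its mean was -0.10 in adult and -0.45 in fetal basal nuclei. In the fetal progenitor-like, adult progenitor-like and mature-luminal-like groups it was -0.26, 0.07 and 0.45. The Trp63 mean was 3.36 in adult and 2.67 in fetal basal nuclei, and -0.72, -0.96 and -1.06 in the fetal progenitor-like, adult progenitor-like and mature-luminal-like groups. In class 14 it was 1.14. The Trp63 mean also differed within a stage, at 3.06 and 3.79 in adult classes 1 and 8 and 2.82 and 2.45 in fetal classes 4 and 12. Between stages, limma called 228 of the 427 motifs in basal nuclei (53.4%) and 13 of the 18 listed motifs with a column. The Trp63 score was 2.62 and 2.69 in the fetal and 3.48 and 3.33 in the adult libraries, a difference of -0.75 ± 0.08 (SE; limma adjusted p = 5.5e-21). With 2 libraries a stage, limma took 1 spread for all motifs, hence the same SE for each and very small p-values, while an exact permutation test of 2 against 2 cannot go below 0.333. The AP-1 score in the Fos column was -1.53 and -2.04 in the fetal and 0.38 and 0.13 in the adult libraries. Its mean was -0.03 in fetal class 4 and -4.51 in fetal class 12, so the fetal value joined 2 unlike classes. Among the 5 groups the Fos mean was highest in the mature-luminal-like group, at 2.80, against 0.20 in adult and -1.90 in fetal basal nuclei. The Sox9 score was higher in the fetus, at 1.48 and 1.36 against 0.21 and 0.29. The Runx1 score was lower, at -0.80 and -0.79 against 0.52 and 0.59, and scores are of motifs that factors of a family can share.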

How the data were processed

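Counts were the starting point: the deposited read tables list, per the file headers and labels, 1 genomic interval and barcode for each aligned read, and reads of listed nuclei were counted here over the authors' distal and promoter regions. Per the submitters' processing notes, Bowtie2, MACS2, bedtools and mm10 were used, with roles, settings and versions not given in the sources used here. The authors' motif scores are per nucleus and their co-accessibility scores per pair of regions; the nuclei behind the latter are not given in the sources used here. A nucleus takes the deposited class number, and doublets were not called.

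A read counts where it overlaps a region. The libraries' basal nuclei gave 664888 to 2136272 distal reads. edgeR 4.0.16 (TMM, quasi-likelihood) tested regions whose mean over the sums reached 10 reads, with DESeq2 1.42.0 as an alternative; limma 3.58.1 (R 4.3.3) tested mean motif scores per library. A standard error is the size of the log2 fold change divided by the square root of F. In simulated data with 4-fold changes, edgeR recovered 84.4% of changed distal regions between stages, 87.9% between classes 12 and 4 and 88.8% between classes 1 and 8. The simulated dispersion was a fixed value, not estimated from these data, so these shares do not give the power for kept regions. The median kept region had 4 to 24 reads in the sum of a class in a library. The members, lists and tests were chosen with earlier results of these data known. Regions are named where they are the 10 highest, the 5 largest called rises and falls without overlap between stages (3 each way within a stage, where none was called), or the highest region of a listed gene; others were chosen after their values were seen. The values of 1 listed gene are not reported here. Genes were assigned by RefSeq protein-coding spans, since starts were at hand for only part of them. The labels do not say whether replicate numbers pair libraries. Deviations of same-numbered libraries correlated at 0.01 over distal regions, which cannot settle it. Libraries are the replicates, and with 2 a stage the p-values rest on spread pooled over regions.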

Additional observations from a re-analysis of the deposited data

How the results depend on the processing

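The number of kept regions was 3739 at 5 CPM, 701 at 20 CPM, 3065 at a ratio of 1.5, 992 at a ratio of 3 and 924 when replicates 1 and replicates 2 each had to meet the rule. Leaving out 1 library gave 1858 to 2387. Calls between stages, 7052 over all distal regions with 177 kept regions higher in the adult and 10 in the fetus, were 3699, 82 and 3 by DESeq2 and 776, 47 and 4 at a mean of 50 reads. With class 4 alone they were 3008 in all and 58 higher in the adult, and with no filter 4 kept regions were higher in the fetus. Leaving out 1 library gave 2539 to 6204 in all, 38 to 156 higher in the adult and 2 to 8 in the fetus. The calls between classes 12 and 4 were 1 by DESeq2, 2 without TMM and 0 at a mean of 50 reads. Those between classes 1 and 8 were 6 without TMM and 11 of 313 tested at a mean of 50 reads, with 1 and 2 kept regions higher in class 8. Promoter calls, 394, were 101 by DESeq2, 189 at a mean of 50 reads and 200 to 375 without 1 library. For promoters tied by score to a kept region, 33 higher in the adult became 12, 16 and 20 to 26. Motif calls ran from 174 to 223 without 1 library. The Nfib motif score, not called in the main comparison, differed by -0.21 with class 4 alone. The labels do not say whether replicate numbers pair libraries. With a replicate block, the calls were 6466 for distal regions, 471 for promoters and 239 for motifs. Co-accessibility at 0.1, chosen after seeing the data, gave 690 kept regions with a promoter partner (35.6%, against 11.96% of all distal regions). The cause of these shifts was not tested, and the median kept region had 12 to 39 reads in a basal library, which limits single-region calls.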
